A study of Homo sapiens with 12 samples.

Results

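ICAM1 (Entrez Gene 3383) encodes intercellular adhesion molecule 1, and it was read by 1 row of the array table, not shared with another gene. It was 1 of 22395 genes named on the array and 1 of 5820 that passed a filter on the mean level (at least 5 on the log2 scale over the 12 arrays). The gene was chosen from these same arrays because its level was higher in every array with quinacrine than in the erlotinib array of the same time, so that pattern is given below as a description, with no test. All RNA came from NCI-H1975, a human non-small cell lung adenocarcinoma line whose EGFR carries the substitutions L858R and T790M, the first activating and the second making the kinase resist erlotinib. The cells were left untreated (1 array, no time given), or were exposed to 1 µM of the EGFR kinase inhibitor erlotinib for 6, 12, 24 or 48 h (4 arrays). The other arrays were of 3 µM of quinacrine, an acridine antimalarial, for 6, 12 or 24 h (3 arrays), or of both compounds at these doses for 6, 12, 24 or 48 h (4 arrays, the combination). Each treatment and time had 1 array of the Affymetrix Human Gene 2.1 ST type, so n counts time points, and the labels do not tell whether separate cultures were used. The title of the study asks about FACT, NF-kappaB and the cell cycle.

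ICAM1 is a membrane glycoprotein of the immunoglobulin superfamily that leukocytes grip through the integrins LFA-1 and Mac-1. It holds T cells and NK cells to a target cell while they scan it, and its tail is tied to the actin cytoskeleton through ezrin, radixin, moesin and alpha-actinin. Epithelial cells carry little of it at rest. Tumour necrosis factor and interleukin-1 raise its transcription through NF-kappaB, and interferon-gamma also raises it; metalloproteases such as ADAM17 can release its outer part.

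The 250 bases before the RefSeq start of ICAM1 (GRCh38.p14, chr19:10270870-10271119, plus strand) are shown because these pathways are known to act on this stretch. The capitals mark matches to 5 motifs, chosen with the known elements of this promoter in mind.

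ICAM1 promoter: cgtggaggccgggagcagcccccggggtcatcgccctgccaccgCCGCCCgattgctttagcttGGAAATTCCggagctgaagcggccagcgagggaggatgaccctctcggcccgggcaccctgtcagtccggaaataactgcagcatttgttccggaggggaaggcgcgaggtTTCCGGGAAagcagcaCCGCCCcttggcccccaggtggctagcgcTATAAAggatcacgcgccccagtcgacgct

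GGAAATTCC, at 186 to 178 bases before the start, matched GGAANTTCC, the core bound by RelA-type NF-kappaB dimers, which 0.831% of 27305 RefSeq promoters of this length hold on either strand. TTCCGGGAA, at 75 to 67 bases before the start, matched TTCNNNGAA, the palindrome bound by factors of the STAT family, which 6.78% hold. The motif GGGCGG, the GC box of Sp1, lay on the minus strand at 206 to 201 and at 59 to 54 bases before the start (42.3% of promoters hold it), and TATAAA, the TATA box, at 30 to 25 bases (11.1%). TGANTCA, the AP-1 motif, has no match in these 250 bases and occurs in 6.6% of promoters. None of these matches overlapped another, and a match is a description of letters, not evidence of binding in these cells.

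Of 21 promoters found for a list of 23 genes that NF-kappaB is known to induce, 5 hold GGAANTTCC. They are given with 10 bases on each side, beside that of ICAM1, because the levels of these genes are reported below.

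ICAM1 (chr19:10270924-10270952, plus strand): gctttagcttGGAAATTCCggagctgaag

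NFKBIA (chr14:35404812-35404840, minus strand): tgactggcttGGAAATTCCccgagcctga

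CXCL8 (chr4:73740468-73740496, plus strand): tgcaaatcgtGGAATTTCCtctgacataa

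CXCL1 (chr4:73869305-73869333, plus strand): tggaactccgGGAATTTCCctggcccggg

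CXCL2 (chr4:74099254-74099282, minus strand): tggagctccgGGAATTTCCctggcccggg

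CXCL3 (chr4:74038749-74038777, minus strand): tggagctccgGGAATTTCCctggcccggc

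The first of these promoters after ICAM1 shares its core letter for letter and belongs to NFKBIA, the inhibitor of NF-kappaB. The other 4 are of chemokine genes that attract neutrophils.

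The arrays were alike in most respects. Over all rows, an array's median correlation with the remaining arrays ran from 0.955 to 0.981. The combination 6 h array stood apart, with the narrowest spread (interquartile range 2.04, against 2.26 to 2.88 on the others) and the lowest median over the tested genes (6.18, against 6.385 to 6.56). Where leaving it out changed which genes were called in a list, that change is given with the list. As a check of the cell line, the epithelial cadherin gene CDH1 lay between 10.08 and 10.53 and EPCAM between 8.35 and 8.67 on the log2 scale. The surfactant gene SFTPB was at 1.87 or less and NAPSA, of alveolar cells, at 4.08 or less on every array, both below the filter. Of the leukocyte markers, PTPRC, which defines these cells, was at 1.38 or less. CD68 (8.21 to 9.07) and CSF1R (5.95 to 7.09) were high on every array, untreated included. None of the 7 measured endothelial markers exceeded 4.1, and none of the 6 fibroblast markers exceeded 3.25.

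ICAM1 was clearly expressed in untreated cells, lower in every erlotinib array and higher in every array with quinacrine. Its level was 7.64 in the untreated array. The erlotinib arrays of 6, 12, 24 and 48 h gave 7.41, 6.75, 6.74 and 7.12, a mean of 7.005 ± 0.323 (SD over time points, n = 4). With quinacrine it was 8.82 at 6 h, 8.33 at 12 h and 8.69 at 24 h (mean 8.613 ± 0.254, SD, n = 3). The combination gave 8.51, 8.33, 8.5 and 8.78 at 6, 12, 24 and 48 h (mean 8.53 ± 0.186, SD, n = 4). The quinacrine and combination ranges overlapped, and neither overlapped the erlotinib range or the untreated value. In bulk RNA a higher level may come from more cells that express the gene or from more RNA per cell, and these cannot be told apart.

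**Figure D1:**
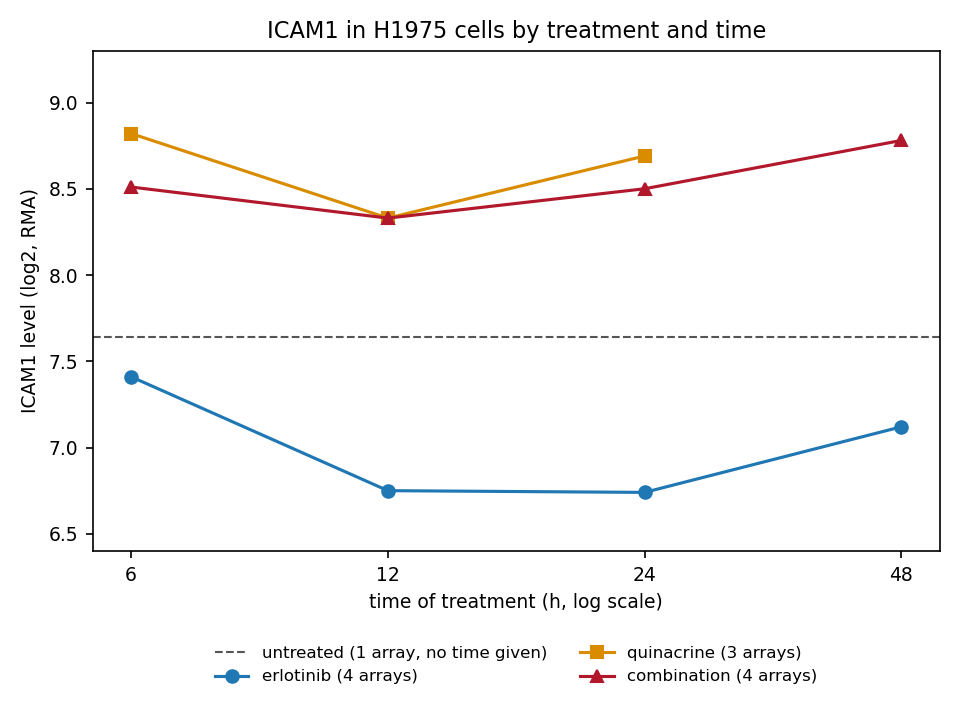
ICAM1 level (log2, vertical axis) on each array against time of treatment in hours (log scale); circles are erlotinib, squares quinacrine, triangles the combination, 1 array per point, and the dashed line is the lone untreated array at 7.64. The 7 arrays with quinacrine lie between 8.33 and 8.82 and the 4 erlotinib arrays between 6.74 and 7.41.

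Ordered by level, the 7 arrays with quinacrine came first, from quinacrine 6 h at 8.82 and combination 48 h at 8.78 down to quinacrine 12 h and combination 12 h, both at 8.33. The steps between neighbours among them were 0.18 or less, about the residual SD of ICAM1 around an additive effect of treatment and time (0.177), so their order is not resolved. The step from 8.33 to the untreated array was 0.69. Below it lay erlotinib 6 h (0.23 lower than untreated), 48 h, 12 h and 24 h, the last pair 0.01 apart. In 136 of the 5820 tested genes (2.34%) all 7 arrays with quinacrine lay above all 5 without it, and in 261 (4.48%) all 7 lay below. The gap of ICAM1 was exceeded in 4 of these genes, the cytokine gene IL24 (1.42), PXDC1 (1.13), SNAPC1 (0.87) and CYLD, a deubiquitinase that restrains NF-kappaB (0.75), the last named after its value was seen. IL24 and PXDC1 averaged under 5 in the arrays without quinacrine and passed the filter through those with it. Since ICAM1 was chosen for its separation, its place is a description only.

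Against erlotinib of the same time, the combination was higher by 1.1 on the log2 scale at 6 h (2.14-fold), 1.58 at 12 h (2.99-fold), 1.76 at 24 h (3.39-fold) and 1.66 at 48 h (3.16-fold). Quinacrine alone was higher than erlotinib by 1.41, 1.58 and 1.95 at 6, 12 and 24 h. The smallest of these differences was that of the combination 6 h array, whose median was low. After median centring it was 1.45, and those at 12, 24 and 48 h were 1.42, 1.71 and 1.66. Both comparisons share the erlotinib arrays, and both were used to choose the gene.

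The choice of ICAM1 did not use erlotinib added to quinacrine as a comparison, but the arrays of both arms served to choose the gene. Its values are therefore a description, and no test is read from them. The combination was lower than quinacrine by 0.31 on the log2 scale at 6 h, equal to it at 12 h and lower by 0.19 at 24 h. The fitted difference was -0.14 (SE 0.141, limma adjusted p = 1), with a 95% interval from -0.47 to 0.18, that is from 0.724-fold to 1.13-fold. The interval does not show that the levels are equal. No gene of 5820 (0%) was called in this comparison by limma, and 47 had an unadjusted p under 0.05. Without the combination 6 h array the difference was -0.026 (adjusted p = 0.997). Set side by side, erlotinib arrays differed from the untreated array by -0.23, -0.89 and -0.9 at 6, 12 and 24 h, and combination arrays differed from quinacrine arrays by -0.31, 0 and -0.19; the difference between these effects was not tested.

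Against the untreated array, ICAM1 was 1.55-fold lower with erlotinib, 1.96-fold higher with quinacrine and 1.85-fold higher with the combination. These are descriptions, since the treated arrays served to choose the gene and the untreated arm is 1 array. The erlotinib arrays differed from it by -0.23, -0.89, -0.9 and -0.52 at 6, 12, 24 and 48 h, all 4 lower. The quinacrine arrays differed by 1.18, 0.69 and 1.05, and the combination arrays by 0.87, 0.69, 0.86 and 1.14, all 7 higher. In the main fit ICAM1 was not among the genes called after adjustment over all genes in any of the 3 comparisons. It was called for quinacrine under 1 of the alternatives tried, and likewise for the combination under 1, and no test is read from these. The limma fit called 0 of 5820 genes for erlotinib (0%, with 144 at an unadjusted p under 0.05), 2 for quinacrine (0.0344%) and 3 for the combination (0.0515%; 0.0172% higher and 0.0344% lower). The single untreated array was taken to vary as the treated ones do, and it serves all 3 comparisons.

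ICAM1 showed no trend with time that passed the test, though the slopes use the arrays that chose the gene and are descriptions. With erlotinib its slope was -0.088 log2 units per doubling of time (SE 0.111, limma adjusted p = 0.928), the level being lowest at 12 and 24 h and higher at 48 h. The slopes were -0.065 with quinacrine (SE 0.176, adjusted p = 0.954) and 0.098 with the combination (SE 0.111, adjusted p = 0.612), and the combination and erlotinib slopes differed by 0.186 (SE 0.157, adjusted p = 0.607). The signs of these slopes turned without a single array: 0.185 for erlotinib without its 6 h array, 0.36 for quinacrine without its 6 h array and -0.005 for the combination without its 48 h array. The combination slope was also -0.012 after median centring. Over all genes 4.97% had a called slope with the combination, 0.0344% with erlotinib and 0% with quinacrine (618 genes at an unadjusted p under 0.05 in limma), and 0.103% a called difference of slopes. At 6 h, the earliest time sampled, ICAM1 was at 8.82 with quinacrine and 8.51 with the combination, 1 array each. The erlotinib 6 h array was at 7.41 and the untreated array at 7.64.

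The other members of the ICAM family and the related vascular molecules stayed low on every array. ICAM2, a short ICAM of vessels and platelets, ranged from 3.14 to 4.28, and ICAM3, the leukocyte member, from 2.01 to 2.64. ICAM4, of red cells, ranged from 1.25 to 2.33 and ICAM5, of neurons, from 1.93 to 2.69. VCAM1, the endothelial partner of the integrin VLA-4 and an NF-kappaB target, lay between 0.94 and 1.65, and MADCAM1, the gut vascular addressin, between 1.08 and 2.49. All 6 were below the filter and were not tested. Their values with quinacrine overlapped those without it. The receptors of ICAM1 are leukocyte proteins, and ITGAL, ITGAM and ITGAX, the alpha chains of LFA-1, Mac-1 and of another such integrin, were at 1.69 or less throughout. Their common beta chain gene ITGB2 ranged from 3.3 to 4.13. Of this group, ICAM1 was the only one that passed the filter.

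**Figure D2:**
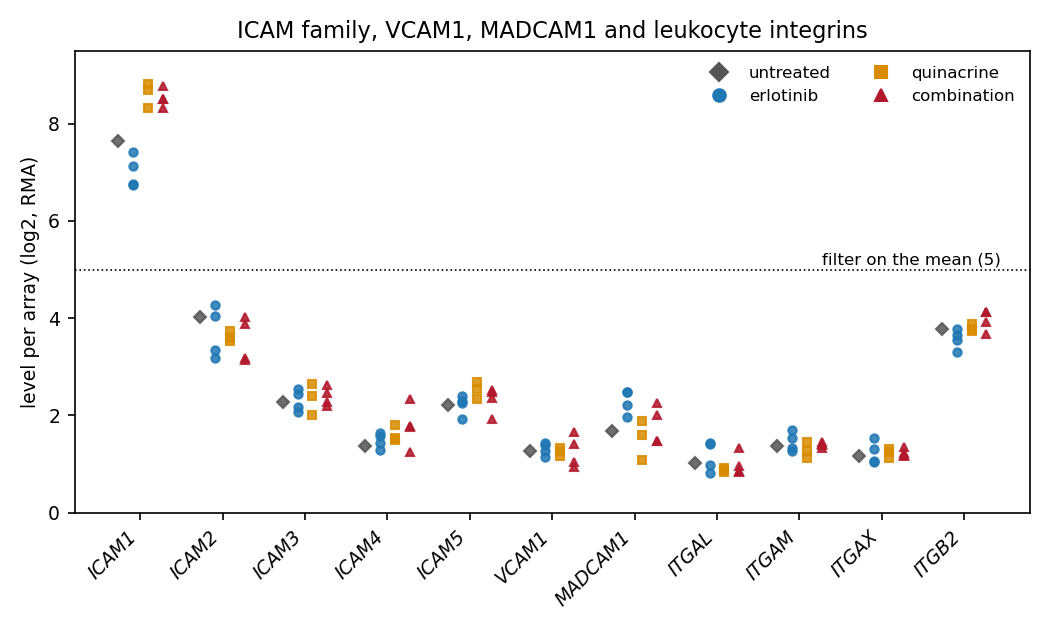
Level of each gene (log2, vertical axis) on the 12 arrays, 1 symbol per array; diamonds are untreated, circles erlotinib, squares quinacrine and triangles combination, and the dotted line is the filter on the mean. Levels are to be compared within a gene; ICAM1 spans 6.74 to 8.82 with its groups apart, whereas the groups of ICAM2 to ICAM5 and VCAM1 overlap.

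ICAM1 lies on chromosome 19 in a run with ICAM4 and ICAM5, its next neighbours on one side in RefSeq. On the other side the nearest protein-coding genes are MRPL4, a mitochondrial ribosomal protein gene, then S1PR2, a sphingosine 1-phosphate receptor gene, and DNMT1, the maintenance DNA methyltransferase gene. MRPL4 lay between 8.59 and 9.05; combination minus erlotinib was -0.15 (SE 0.0969, limma adjusted p = 0.426). DNMT1 lay between 8.81 and 9.19, with a difference of -0.065 (SE 0.104, adjusted p = 0.776). S1PR2, below the filter, ranged from 2.79 to 4.4. ZGLP1, the next gene after ICAM5, had no row of its own here. Neither of the tested neighbours passed in quinacrine versus erlotinib either (adjusted p = 0.522 for MRPL4 and 0.984 for DNMT1).

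The genes whose profile over the 12 arrays was most like that of ICAM1, by Pearson correlation of log2 levels among the tested genes, were EPHA2 (r = 0.967), PXDC1 (0.953), IFNGR2 (0.952), IL24 (0.948), SNAPC1 (0.945), MICB (0.939), KLHDC10 (0.937) and SRF (0.936). The points of such a correlation share arrays, treatments and normalization, and the choice was made on the same values, so these are descriptions over 12 arrays. Of 5819 genes compared, 27 had r of at least 0.9 and 7 had r of -0.9 or lower, and the median was -0.017. By Spearman rank only 2 of the 8 remained among the first 8, while 7 remained without the untreated array and 6 or more under the other settings tried.

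EPHA2, an ephrin receptor kinase, is the closest of these. It was at 7.89 untreated, 7.47 to 7.79 with erlotinib, 8.27 to 8.39 with quinacrine and 8.18 to 8.51 with the combination. IFNGR2, the signalling chain of the interferon-gamma receptor, was at 5.38 untreated, 5.06 to 5.46 with erlotinib, 5.94 to 6.36 with quinacrine and 5.91 to 6.44 with the combination. In both genes every array with quinacrine lay above every array without it. IL24, whose product is related to interleukin-10, spanned 3.94 log2 units, from 3.75 at erlotinib 24 h to 7.69 at combination 48 h, against 1.04 for EPHA2. MICB, a stress-induced ligand of the NK cell receptor NKG2D, was at 7.18 untreated, 6.73 to 7.1 with erlotinib and 7.56 to 8.23 in the 7 arrays with quinacrine. SNAPC1 belongs to the complex that activates small nuclear RNA genes, and SRF is the serum response factor. They spanned 1.92 and 0.62 units. PXDC1 spanned 2.03 units and KLHDC10 0.89. None of the 6 promoters found for these 8 genes holds GGAANTTCC or TTCNNNGAA. The most opposite profiles were those of HPDL (r = -0.937), SNAR-E, a short noncoding RNA that has near-identical copies (-0.923), and the mitochondrial ribosomal protein gene MRPL24 (-0.918).

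**Figure D3:**
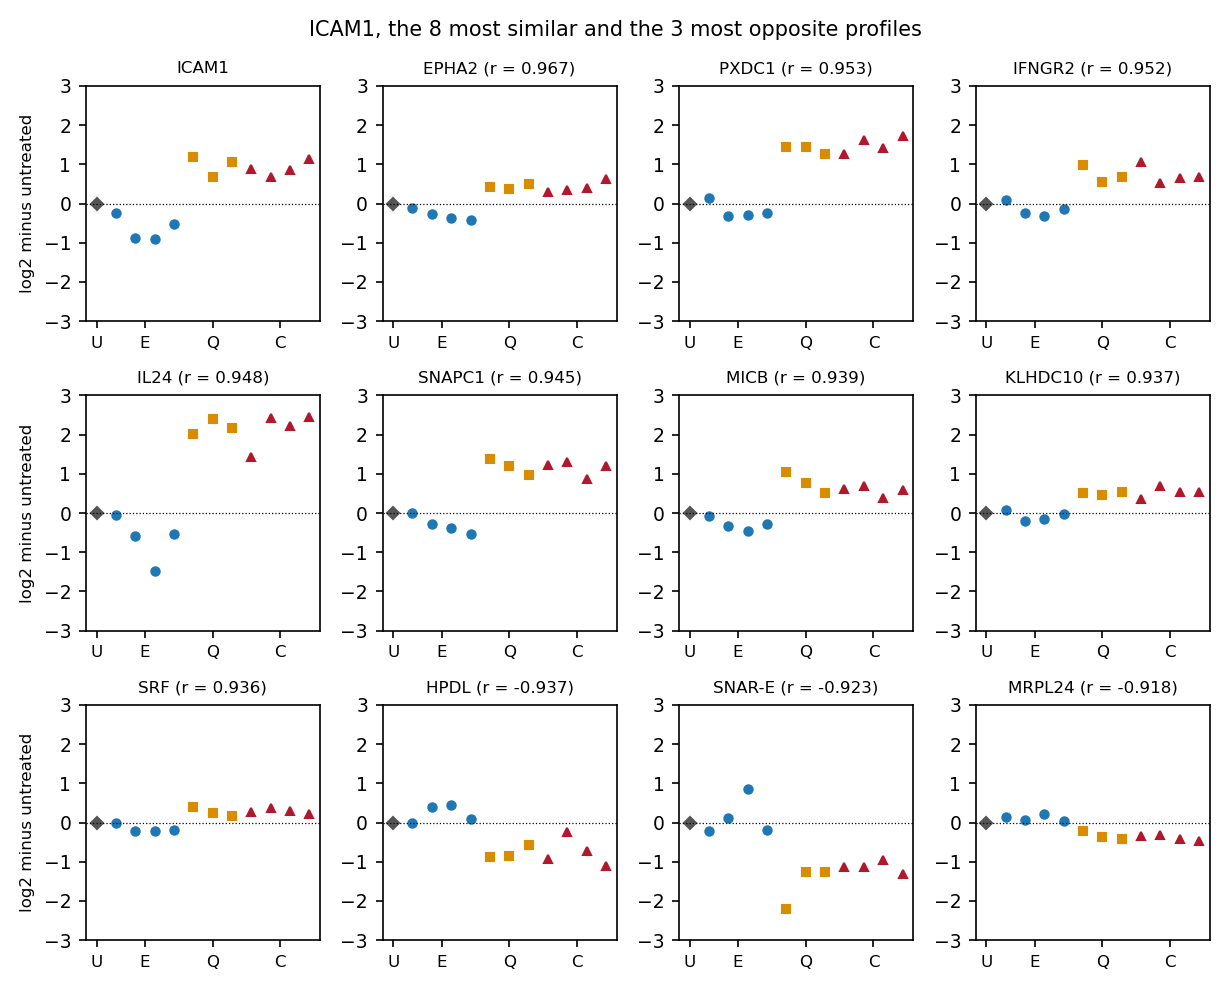
Log2 level minus that of the untreated array (vertical axis) for ICAM1, the 8 most similar and the 3 most opposite genes, with arrays in time order within U (untreated, diamond), E (erlotinib, circles), Q (quinacrine, squares) and C (combination, triangles). In each of the 8 similar genes the squares and triangles lie above the circles, by most in IL24 and by least in SRF.

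Genes of the NF-kappaB pathway itself were examined next, in lists drawn up with earlier results of these data known. Between combination and erlotinib 3.64% of all tested genes were called (1.43% higher and 2.22% lower), and between quinacrine and erlotinib 1.13% (0.515% higher and 0.619% lower); the comparisons share the erlotinib arrays. Of 9 tested subunits, kinases and inhibitors, 0 were called in either comparison. In the slopes with time, NFKB2 (0.232, limma adjusted p = 0.0474) and NFKBIA (0.473, 0.0239) were called with the combination, as were 4.97% of all genes. NFKB2 was also called for combination minus erlotinib slope (0.595, adjusted p = 0.0492), as were 0.103% of all genes. Over all genes, both counts of called slopes fell to 0 under some settings. The median difference between combination and erlotinib was 0.258, against -0.0275 over all genes. The subunit genes NFKB1 (-0.02, SE 0.191, adjusted p = 0.974) and RELA (-0.04, SE 0.127, adjusted p = 0.893) were close to their erlotinib levels. TNFAIP3, which encodes the inhibitor A20, was at 7.53 untreated and at 7.41, 6.56, 5.53 and 5.76 with erlotinib at 6, 12, 24 and 48 h. With the combination it was at 7.53, 7.52, 8.14 and 8.7, and with quinacrine at 7.79, 7.55 and 8.17. Its difference, 1.66 between combination and erlotinib, had an SE of 0.43 and an adjusted p of 0.0785. NFKBIA, whose promoter shares the NF-kappaB core of ICAM1, differed by 0.6 (SE 0.242, adjusted p = 0.211). It was at 8.52 to 9.89 with the combination and at 8.42 to 8.86 with erlotinib, with overlapping ranges. TNFAIP3 passed without the combination 6 h array (1.98, adjusted p = 0.0379), after median centring (0.0249) and under 6 of the other settings tried.

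Of 10 tested genes that NF-kappaB is known to induce, ICAM1 left out, 3 were higher with the combination than with erlotinib, CCL2, CXCL8 and IRF1. None was lower and 7 did not pass, while over all tested genes 1.43% were called higher and 2.22% lower. For quinacrine versus erlotinib the share called higher was 0.515%. CXCL8 and IRF1 averaged under 5 in the arrays without quinacrine and entered the test through the arrays with it, so only the call of CCL2 is free of that selection. With no filter on the mean, CCL2 (adjusted p = 0.0467) and IRF1 (0.0469) passed and CXCL8 did not (0.107). The 10 differences ran from 0.258 to 1.67, with a median of 0.614, and 44.7% of all tested genes had a difference above 0. Against the untreated array 0 of the 10 were called for any treatment. The medians there were 0.377 for the combination, 0.263 for quinacrine and -0.246 for erlotinib. TNFAIP3, NFKBIA and NFKB2 belong to both lists. With quinacrine alone CCL2 and IRF1 rose and 8 did not pass (median 0.651, against 0.0142 over all genes); with no filter IRF1 did not pass there (adjusted p = 0.0634).

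CCL2, a chemokine that attracts monocytes, was at 7.72 untreated and at 7.27, 7.05, 7.29 and 7.95 with erlotinib. It was at 8.85, 9.04 and 9.81 with quinacrine and at 8.04, 9.19, 9.7 and 9.32 with the combination. It was 1.67 higher with the combination than with erlotinib (SE 0.241, limma adjusted p = 0.0188), and all 7 arrays with quinacrine exceeded the 5 without. IRF1, an interferon-inducible transcription factor, was at 4.69 untreated, 4.61 to 5.1 with erlotinib, 5.62 to 6.22 with quinacrine and 5.56 to 6.09 with the combination (difference 0.977, SE 0.134, adjusted p = 0.0186). CXCL8, the neutrophil chemokine interleukin-8, was at 4.46 untreated, 3.77 to 4.84 with erlotinib, 5.06 to 6.11 with quinacrine and 5.23 to 6.24 with the combination (1.36, SE 0.283, adjusted p = 0.0397). With quinacrine alone CXCL8 did not pass (adjusted p = 0.0867). It passed there without the combination 6 h array (0.0483), after loess (0.0342) or median centring (0.0305), with array weights (0.0118) and without erlotinib 6 h (0.0299).

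Genes of this list whose promoters hold the same core were not alike. CXCL1 ranged from 2.79 to 4.77, CXCL2 from 3.22 to 4.7 and CXCL3 from 1.31 to 3.4. They were below the filter, and the probes of these near-identical genes may read one another. The calls of CCL2 and IRF1 for the combination were lost without the erlotinib 12, 24 or 48 h or the combination 12, 24 or 48 h array (adjusted p up to 0.113 and 0.114), and that of CXCL8 also without any quinacrine array (up to 0.154). For quinacrine alone, CCL2 and IRF1 lost their calls without erlotinib 12 or 24 h or any quinacrine array (up to 0.129 and 0.144). Without the combination 6 h array 6 of the 10 were called higher, while over all genes such calls went from 83 to 177. All calls for the combination against erlotinib in this and the next lists were lost when only the arrays of these 2 groups were fitted. They were also lost when all rows of the table were tested, and all but those of IFNGR2 and MICB over 6, 12 and 24 h alone. Calls for quinacrine were lost with all rows.

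Signalling from interferon-gamma and interleukin-6 to STAT factors had 8 tested genes, of which IFNGR2 rose in both comparisons and 6 did not pass in either. The shares called higher over all genes were 1.43% for combination versus erlotinib and 0.515% for quinacrine versus erlotinib. IRF1, described above, is also in this list, with the same limit from the filter. Against erlotinib, IFNGR2 was 1.85-fold higher in the combination arrays (log2 0.888, SE 0.0906, limma adjusted p = 0.00544) and 1.85-fold higher with quinacrine (0.887, adjusted p = 0.00785). Its call for the combination was lost without the combination 24 h array, and that for quinacrine without erlotinib 24 h or any quinacrine array (adjusted p up to 0.0565 and 0.0995). STAT3, which carries the interleukin-6 signal, ranged from 8.86 to 9.2 with erlotinib and from 9.26 to 9.55 in the 7 arrays with quinacrine. Its difference between combination and erlotinib, 0.368, did not pass (SE 0.0886, adjusted p = 0.0625). STAT3 passed after loess (0.025) or median centring (0.0415), with array weights (0.0341) or a trended variance (0.0144), and without erlotinib 6 h (0.0496). For quinacrine versus erlotinib it did not pass (0.434, adjusted p = 0.0721), but passed without the combination 6 h array (0.0471) and under other settings. The kinase gene JAK1 differed by -0.17 between combination and erlotinib (adjusted p = 0.416).

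Of 11 tested genes of AP-1, C/EBP, ETS and SP1 factors, JUNB rose with the combination (0.577, SE 0.116, limma adjusted p = 0.035), 10 did not pass, and 0 passed with quinacrine alone. Called higher over all genes were 1.43% with the combination and 0.515% with quinacrine, so 1 call in a list this short says little of the list. JUNB was at 9.07 untreated, 8.79 to 9.14 with erlotinib, 9.43 to 9.57 with quinacrine and 9.25 to 9.7 with the combination. Without the combination 6 h array JUNB also passed with quinacrine alone (0.567, adjusted p = 0.0317), and it did so under other settings. Of 7 tested cytokine receptors and adaptors that feed NF-kappaB, MYD88, the adaptor of Toll-like and interleukin-1 receptors, rose with the combination (0.525, SE 0.102, adjusted p = 0.0337), and 6 did not pass. It was at 5.33 untreated, 5.55 to 5.6 with erlotinib and 5.79 to 6.25 in the 7 arrays with quinacrine. With quinacrine alone MYD88 did not pass in the main fit. It passed there without the combination 6 h array (0.49, adjusted p = 0.0409) and under other settings. The tumour necrosis factor receptor gene TNFRSF1A was at 6.02 to 6.61 (-0.165, adjusted p = 0.426), and the interleukin-1 receptor gene IL1R1, below the filter, was at 2.93 to 4.09. Both calls for the combination were lost without any single quinacrine array, or without the erlotinib or combination arrays of 12, 24 or 48 h (adjusted p up to 0.152 for JUNB and 0.151 for MYD88). Both were lost with no filter on the mean, and that of MYD88 also without both combination 6 h and erlotinib 12 h (the arrays of smallest spread). In the slopes with time, CEBPB and TNFRSF12A of these lists, named after their values were seen, were called higher with the combination. Such slopes were called in 4.97% of all genes.

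No other adhesion gene of the lists passed between treatments in the main fit, which at 3.64% of all genes called says little of lists this short. Of 9 tested adhesion molecules of other kinds none passed there, and the median difference between combination and erlotinib was 0.0875. In the slopes with time, BCAM, named after its value was seen, was called higher with the combination. Slopes with the combination were called in 4.97% of all genes. CD47, the signal that holds off phagocytes, differed by 0.46 (SE 0.209, adjusted p = 0.254), the desmosomal cadherin gene DSG2 by -0.192 (adjusted p = 0.296) and CDH1 by 0.16 (adjusted p = 0.441). Of 9 tested integrins of epithelial cells none passed (median 0.01). ITGA5, the alpha chain of a fibronectin receptor, was at 7.66 to 7.87 with erlotinib and 8.06 to 8.45 in the 7 arrays with quinacrine (0.432, SE 0.12, adjusted p = 0.0918), with the untreated array at 8.06. ITGA5 passed without the combination 6 h array (0.524, adjusted p = 0.041), after median centring (0.042), loess, array weights or a trended variance, and ITGB6, named after its value was seen, passed without erlotinib 6 h (0.982, adjusted p = 0.0116). ITGB1, the common beta chain, differed by -0.312 (adjusted p = 0.201). For quinacrine versus erlotinib, ITGA5 passed without the combination 6 h array (0.504, adjusted p = 0.0471) and under other settings, though not in the main fit. These values are for limma with adjustment over all genes.

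The genes that tie ICAM1 to the cytoskeleton, and those that release it, had 0 calls as well, against 3.64% over all genes. Of 8 tested cytoskeletal partners none passed, with differences from -0.31 to 0.218. EZR, encoding ezrin, was at 8.55 to 8.9 and MSN, encoding moesin, at 9.79 to 10.16 on all arrays. ARHGEF26, an exchange factor for RhoG that binds the ICAM1 tail, differed by -0.31 (SE 0.0935, adjusted p = 0.114), and the vinculin gene VCL by 0.218 (adjusted p = 0.306). Of 5 tested shedding proteases and their regulators none passed. The protease gene ADAM17 was at 5.42 to 6.56 (0.04, adjusted p = 0.937) and ADAM10 at 7.4 to 7.95 (0.11, adjusted p = 0.635). The largest difference was that of RHBDF1, a carrier of ADAM17 (0.417, SE 0.164, adjusted p = 0.2). It passed without the combination 6 h array (0.595, adjusted p = 0.0384), after median centring (0.0452) and after loess (0.0462). TIMP1, a metalloprotease inhibitor, differed by -0.197 (adjusted p = 0.367).

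Ligands that T and NK cells read on the same target cell surface had 8 tested members. MICB and HLA-E, a ligand of the inhibitory receptor NKG2A, rose with the combination, and 6 did not pass. With quinacrine alone MICB rose and 7 did not pass. Over all genes 1.43% were called higher with the combination and 0.515% with quinacrine, each against erlotinib. HLA-E also had a called slope with time in the combination arrays, as did 4.97% of all genes. Against erlotinib, MICB was 1.81-fold higher in the combination arrays (0.858, SE 0.0982, limma adjusted p = 0.00865) and 2.1-fold higher with quinacrine (adjusted p = 0.00581). HLA-E was at 7.59 untreated, 7.42 to 7.73 with erlotinib, 7.81 to 8.19 with quinacrine and 7.87 to 8.69 with the combination (0.61, SE 0.113, adjusted p = 0.0328). CD274, encoding PD-L1, was at 4.05 to 5.85 with erlotinib and 4.74 to 6.12 in the 7 arrays with quinacrine, with overlapping ranges (0.487, adjusted p = 0.551). MICB and HLA-E belong to families of similar genes whose probes may share signal. The MICB call for the combination was lost without the combination 24 h array and that for quinacrine without any quinacrine array (adjusted p up to 0.0827 and 0.0661). That of HLA-E was lost without any single quinacrine array, or without the erlotinib or combination arrays of 12, 24 or 48 h (up to 0.144), and with no filter or no time term.

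**Figure D4:**
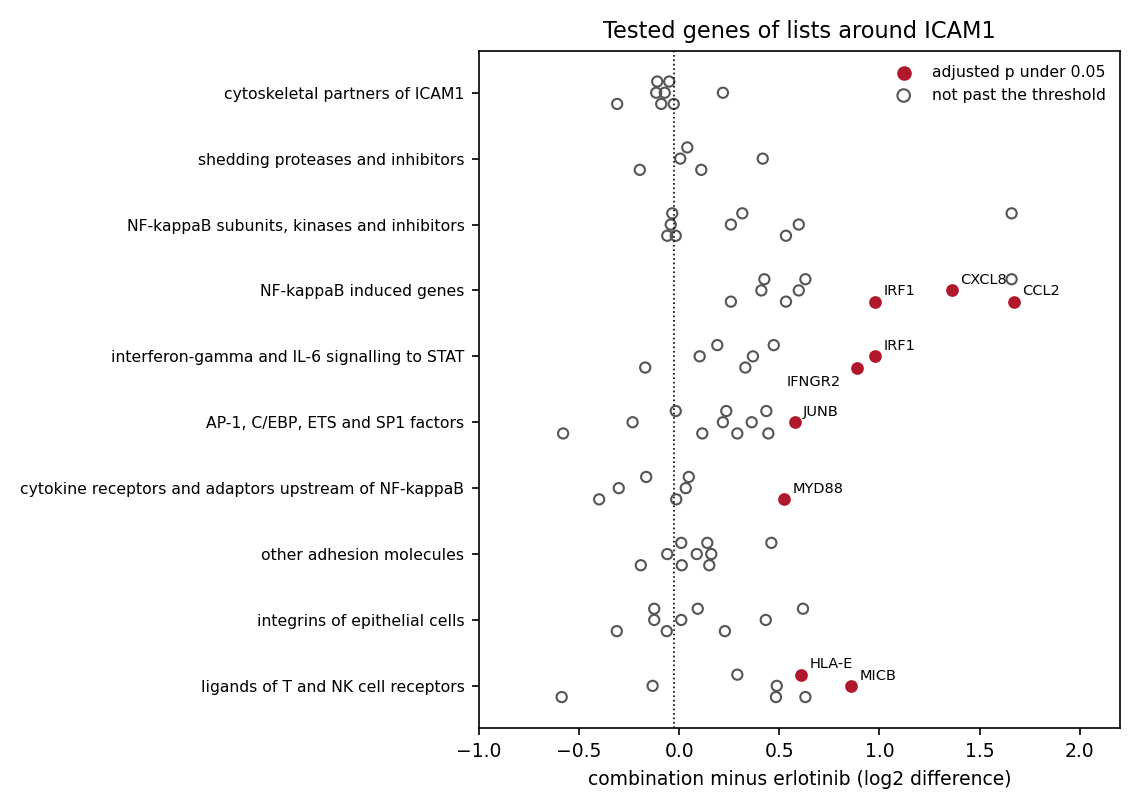
Log2 difference between combination and erlotinib (horizontal axis) of the tested genes in 10 lists around ICAM1, 1 point per gene, with filled points at an adjusted p under 0.05 and the dotted line at the median of all tested genes (-0.0275). The filled points, CCL2, CXCL8, IRF1, IFNGR2, JUNB, MYD88, MICB and HLA-E, all lie above 0, and the lists of NF-kappaB subunits, cytoskeletal partners, shedding, adhesion and integrins have none.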

How the data were processed

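The deposited values are log2 expression levels, 1 per probe set and array. Per the series design text and the submitters' processing notes, the authors ran RMA in Affymetrix Expression Console 1.30, which corrects background, applies quantile normalization and takes log2; their annotation files were for hg19. Quantile normalization is meant to give arrays the same distribution, so levels are relative to the whole RNA of an array. The deposited values still differed in spread (interquartile range over all rows from 2.04 to 2.88). They were used as deposited. The platform annotation gave 1 symbol to 23871 of 53617 rows, more than 1 to 1842 and no symbol to 27904; 22569 were matched to RefSeq through Entrez IDs and 90 symbols changed. Where a gene had several rows (632 genes) that of the highest mean was used, and genes with a mean of at least 5 were tested (5820, 26.0% of 22395). Since treated arrays count in this mean, a gene could pass through the treatment that raised it.

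The tests were moderated linear models of limma 3.58.1 (R 4.3.3), and p-values were adjusted by Benjamini and Hochberg's method across all 5820 genes. Treated groups were compared in 1 fit of 11 arrays with treatment and time as factors (5 residual degrees of freedom), whose residual is departure from additivity, not replicate error. Comparisons with the untreated array used group means over 12 arrays (8 residual degrees of freedom), and slopes a fit of log2 time within each treatment over 11 arrays. The procedure was also run on simulated data with independent normal noise around each gene's mean. That noise has no time or array effects, so the run is not used as support for the calls made here. ICAM1, the gene lists, the motifs and the rule for naming genes were chosen with earlier results of these data known. The rule named ICAM1, 14 genes always (1 of them is not reported here), up to 5 called members of each list by smallest p for combination versus erlotinib (2 where none was called), the 8 most similar and 3 most opposite genes, and the 3 nearest protein-coding genes on each side. Promoters are those of RefSeq on GRCh38.p14, with 27305 of them searched on both strands. Arrays carry no read depth, and their number limits the precision; p-values reflect the spread among these arrays alone, which may be technical.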

Additional observations from a re-analysis of the deposited data

Results flagged for a closer look

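In 50 groups of 4 time points (erlotinib or combination, for ICAM1 and the other genes always named or most similar or opposite to it), 2 arrays stood apart from the rest of their group, and chance sets apart about 1 group in 20. CDH1 was at 10.08 in the combination 6 h array, with the nearest of the other combination arrays at 10.44. That array also had the lowest median over the tested genes, 6.18. SRF was at 7.79 in the erlotinib 6 h array, with the nearest of the other erlotinib arrays at 7.6 and the untreated array at 7.8. No group of ICAM1 values stood out in this way.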

How the results depend on the processing

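The direction of every ICAM1 difference between treatments, and from the untreated array, held under all alternatives tried. For the comparisons with erlotinib the choice of the gene left little room for another outcome. Without 1 array at a time the ICAM1 difference ran from 1.437 to 1.642 for combination versus erlotinib, 1.566 to 1.806 for quinacrine versus erlotinib and -0.2025 to -0.026 for combination versus quinacrine. Against untreated it ran from 0.8067 to 0.9567 (combination), 0.87 to 1.115 (quinacrine) and -0.77 to -0.5467 (erlotinib). With array weights, whose estimation gave a convergence warning, it was 0.817 for quinacrine and 0.867 for the combination. These values use the arrays that chose the gene, so no test is read from them. The ICAM1 slope turned to -0.012 after median centring and -0.005 over 6, 12 and 24 h in the combination arrays. Without 1 array at a time it ran from -0.005 to 0.225 (combination), -0.335 to 0.185 (erlotinib), -0.49 to 0.36 (quinacrine) and -0.087 to 0.433 (combination minus erlotinib).

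Counts of called genes moved far more, and the cause was not tested. For combination versus erlotinib (212, 83 higher and 129 lower) they were 51 with no filter, 9 with all rows, 485 after cyclic loess (220 and 265), 439 after median centring (223 and 216), 380 with array weights (202 and 178), 34 over 6, 12 and 24 h, 6 from the 2 groups alone, and 6 to 322 without 1 array. For quinacrine versus erlotinib (66) the same settings gave 28, 3, 334, 293, 682 and 41, a trended variance 178, no time term 106, and leaving out 1 array 0 to 288. Against untreated, erlotinib (0) had 1 with no filter and 2 with all rows. Quinacrine (2) had 6 after loess, 6 after centring, 494 with weights, 9 without the 2 arrays of smallest spread, and 0 to 5 without 1 array. The combination (3) had 1 with all rows, 5 after loess, 6 after centring, 809 with weights, 5 without those 2 arrays, and 0 to 5 without 1 array.

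Called slopes for erlotinib (2) were 0 with no filter, all rows, 6 to 24 h or linear time, 20 with a trended variance, 7 after loess, 8 after centring, 1 with weights, 6 without the 2 arrays, and 0 to 7 without 1 array. For quinacrine (0) they were 16 with a trended variance, 279 with weights, 148 without the 2 arrays, and 0 to 7 without 1 array. For the combination (289) they were 92 with no filter, 0 with all rows, 467 with a trended variance, 446 after centring, 24 with weights, 0 over 6 to 24 h, 8 with linear time, 0 without the 2 arrays, and 0 to 921 without 1 array. The slope difference (6) had 22 calls with a trended variance, 0 under the other settings that moved it, and 0 to 110 without 1 array. Leaving out the 2 arrays of smallest spread (combination 6 h and erlotinib 12 h) was chosen after seeing the data. Time, which matches arrays across treatments, was a factor in the main fit. With no replicate block of this kind, 162 genes were called for combination versus erlotinib, ICAM1 differed by 1.525 and 1.608 from erlotinib and by -0.083 between combination and quinacrine, and HLA-E lost its call (adjusted p = 0.075). Each treatment and time had 1 array, so no replicate error was measured, and array signal close to background bounds what can be seen of genes below the filter.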
